A study of Homo sapiens with 6 samples.

Results

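The leptin receptor gene LEPR and 8 genes that travel or signal with it were followed in T47D cells after transfection of an siRNA that the labels call HOTAIR-N. The 9 genes are LEPR, LEPROT, LEPROTL1, IL6ST, IL6R, LIFR, OSMR, STAT3 and SOCS3, out of 27968 genes in the deposited tables, with 30 of the 70006 transcripts listed there. They were chosen by name as a receptor family, with the fold changes between these same libraries in view. Their own differences between the siRNAs are therefore given below as a description, without a test. T47D is an established human breast cancer line of luminal, estrogen receptor-positive character. One group of 3 libraries came from cells transfected with a control siRNA and the other group of 3 from cells transfected with the HOTAIR-N siRNA. All cells were kept in RPMI containing 10% serum, received RNAiMAX as the transfection reagent and were lysed 48 hours after transfection. HOTAIR is a long noncoding RNA of the HOXC cluster. The libraries of a group are numbered samples of the same line, each group stands for 1 siRNA label, and the sources used here do not give the siRNA sequences.

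Leptin, a hormone of fat tissue, binds LEPR, a single-pass receptor that carries the kinase JAK2 on its cytoplasmic tail. LEPR resembles gp130, the product of IL6ST, which is the shared signalling chain for interleukin 6, leukemia inhibitory factor, oncostatin M and their relatives and pairs with IL6R, LIFR or OSMR according to the ligand. These receptors activate Janus kinases, which phosphorylate STAT3, and STAT3 in turn switches on SOCS3, an inhibitor that binds the receptors and dampens the signal. LEPROT and LEPROTL1 code for small membrane proteins of the endosome and Golgi that limit how much receptor reaches the cell surface. LEPR and LEPROT overlap on chromosome 1: they share a start and the first exons and then splice to different exons.

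The start that both genes share lies at chr1:65420418-65420717 on the plus strand (RefSeq, GRCh38.p14, 250 bases before to 50 after the start). It is shown because, of the 2 genes that use it, LEPR was nearly lost and LEPROT was not. Capitals mark the GC box letters GGGCGG on either strand.
LEPR and LEPROT shared start: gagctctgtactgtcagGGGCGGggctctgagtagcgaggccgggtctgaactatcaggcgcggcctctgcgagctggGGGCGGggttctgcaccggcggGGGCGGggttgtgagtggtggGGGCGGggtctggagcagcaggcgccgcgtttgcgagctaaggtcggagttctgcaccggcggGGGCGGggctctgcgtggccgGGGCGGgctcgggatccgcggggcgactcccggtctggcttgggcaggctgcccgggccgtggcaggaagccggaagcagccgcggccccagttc
The window held 6 such matches and none of the STAT letters TTCNNNGAA or the letters CCAAT, searched on both strands. At least 1 GGGCGG match was found in 45.0% of 35116 RefSeq promoter windows of the same length, and as many as 6 in 2.86%. RefSeq windows were at hand for 8 of the 9 genes, 12 windows in all. TTCNNNGAA stood in 2 of these 12, both of LIFR, and in 7.66% of all windows, and it was in neither window of SOCS3. These matches describe letters, not binding.

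Each library held from 31777001 to 36707169 expected counts. Levels are given as CPM, counts relative to library size after TMM scaling, and 1 CPM stood for 31.8 to 36.7 counts. HOTAIR, the gene the siRNA is named for, had 577, 540 and 581 expected counts in control replicates 1 to 3 and 206, 185 and 196 in the HOTAIR-N replicates, and fell to 34.7% of control (adjusted p = 2.1e-09 in edgeR). HOXC11 lies across it on the other strand, and a use of strand in counting is not stated in these sources, so reads of HOXC11 could be included. All 10 luminal epithelial markers examined exceeded 1 TPM (the deposited level per transcript length) in every library. Their levels were not equal between the groups. They summed to 9150 to 10400 TPM with the control and to 8240 to 9100 TPM with the HOTAIR-N siRNA, and single luminal markers were lower or higher. Markers of endothelium summed to at most 0.07 TPM and those of adipocytes to at most 0.62 TPM. Among 6 fibroblast markers only COL1A1 exceeded 1 TPM in every library, and their summed level was 9.1 to 10.4 TPM with the control siRNA and 12.4 to 13.9 TPM with the HOTAIR-N siRNA. Among 6 leukocyte markers only CD68 did so, and their sum was 3.09 to 3.38 TPM against 3.91 to 4.8 TPM. LUM accounted for the higher fibroblast sum, at 0.233 TPM with the control and 4.74 TPM with the HOTAIR-N siRNA. Against it, COL1A1 went from a mean of 9.37 to 8.01 TPM with overlapping groups, and COL3A1 fell from 0.28 to 0.0867 TPM. DCN, COL1A2 and PDGFRB were below 0.05 TPM in both groups. The part of these marker levels in the values below was not tested. Control replicate 2 stood somewhat apart from the other controls, with a chi-square per degree of freedom of 8.9 and 9.02 against them, where the remaining control pair gave 2.21. The same held for HOTAIR-N replicate 3, at 6.99 and 7.75 where the other HOTAIR-N pair gave 2.37. Without both libraries the log2 fold changes were -4.36 for LEPR, 0.18 for LEPROT, -0.66 for LEPROTL1, -0.59 for IL6R and 1.21 for SOCS3, against -4.22, 0.15, -0.66, -0.58 and 1.29 with all 6, and those of the other 4 genes lay between 0.05 and 0.42.

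LEPR was nearly lost with the HOTAIR-N siRNA, whereas IL6ST, LIFR and OSMR were within 1.5-fold of the control and IL6R was at the edge of that range. The expected counts of LEPR were 267, 286 and 274 in control replicates 1 to 3 and 13, 13 and 18 in HOTAIR-N replicates 1 to 3. Every control library was far above every HOTAIR-N library. The level was 7.95 ± 0.526 CPM (SD, n = 3) against 0.425 ± 0.0861 CPM (SD, n = 3), an 18.6-fold lower level, with a log2 fold change of -4.22 (SE 0.15). Of the 14919 genes with enough counts to be tested, 1 had a lower log2 fold change. In bulk RNA, fewer cells with the transcript and less of it per cell cannot be told apart.

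Changes were widespread in these libraries, which sets the scale for all counts below. In edgeR's quasi-likelihood test at an adjusted p under 0.05, 71.1% of the tested genes differed, 36.2% higher and 34.8% lower, and the 2 groups did not overlap in CPM for 73.4%. The median log2 fold change of all tested genes was 0.02, and 66.5% of them differed by less than 1.5-fold. All 9 receptor genes passed the filter on low counts. The libraries of the groups did not overlap for 5 of them in CPM (3 lower, 2 higher) and for 4 in TPM, and 6 of the 9 were within 1.5-fold, with a median log2 fold change of 0.1. Because the genes were named with this contrast known, nothing is read from these counts.

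**Figure D1:**
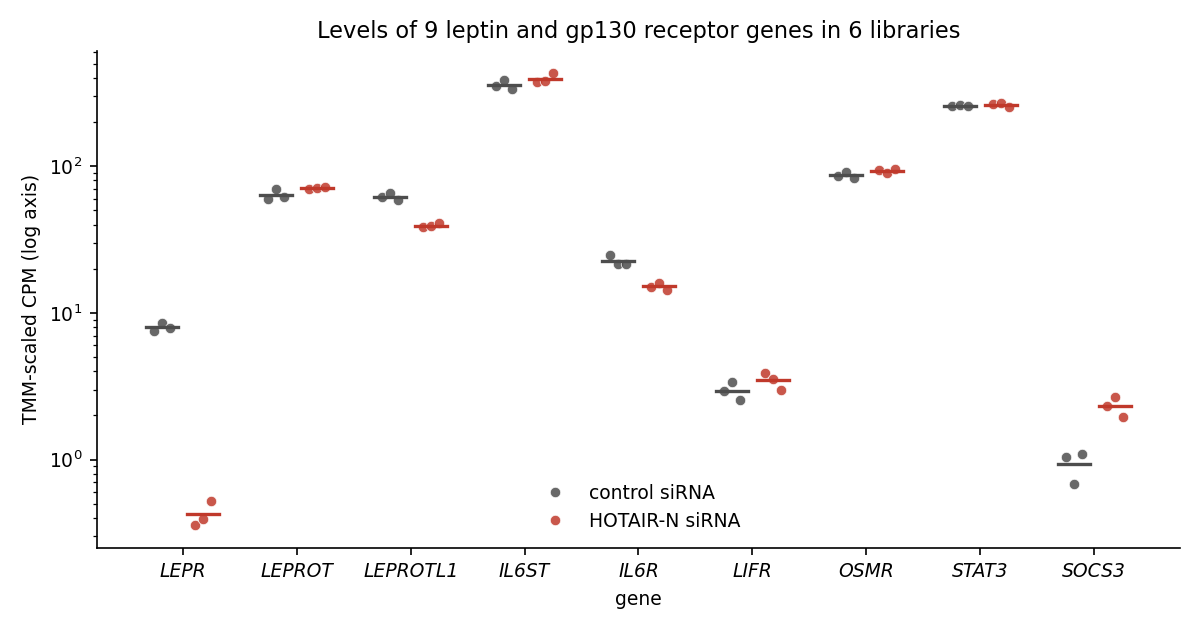
TMM-scaled CPM (log axis) of the 9 genes in each of the 6 libraries, control siRNA in grey and HOTAIR-N siRNA in red, with a line at each mean. LEPR averages 7.95 CPM in the controls and 0.425 CPM in the HOTAIR-N libraries, LEPROTL1 and IL6R are lower and SOCS3 is higher in all HOTAIR-N libraries, and IL6ST, LIFR, OSMR and STAT3 overlap.

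LEPROT, which starts where LEPR starts, did not follow it. Its expected counts were 2143, 2329 and 2160 in the controls and 2529, 2324 and 2482 in the HOTAIR-N libraries. In CPM the groups only just failed to meet, since the highest control and the lowest HOTAIR-N library both stood at 69.4, and in TPM they overlapped. Mean levels were 63.8 ± 4.94 and 70.7 ± 1.25 CPM (SD, n = 3), a log2 fold change of 0.15 (SE 0.07). LEPR made up 11.1%, 10.9% and 11.2% of the counts of the pair in the controls and 0.511%, 0.556% and 0.72% in the HOTAIR-N libraries.

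Summed in CPM, the pair differed by less than its spread. LEPR and LEPROT together were at 71.7 ± 5.46 CPM (SD, n = 3) in the controls and at 71.1 ± 1.33 CPM (SD, n = 3) in the HOTAIR-N libraries. LEPR was lower by 7.52 CPM and LEPROT higher by 6.92 CPM, close in size, although the LEPROT difference was little more than the spread of the control libraries. RSEM divides reads that fit both genes. The deposited counts were fractional in the controls, at 267.1, 286.26 and 273.79 for LEPR and 2142.9, 2328.74 and 2160.21 for LEPROT. They were whole in the HOTAIR-N libraries. How much of the LEPROT difference comes from that division was not tested.

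The transcripts of LEPR differ at both ends. At the front, 3 RefSeq forms (NM_001003679, NM_001003680 and NM_002303) begin at the start shared with LEPROT, and 3 others (NM_001198687, NM_001198688 and NM_001198689) begin at an exon 105 kb downstream. All meet at an exon 145 kb from the shared start, and the gene ends at 221 kb, whereas LEPROT ends at 15 kb (GENCODE 29, GRCh38, distances only). At the back, NM_002303 codes for the receptor of 1165 amino acids with the long tail that recruits STAT3, and the others code for short-tailed receptors of 896 to 958 amino acids.

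**Figure D2:**
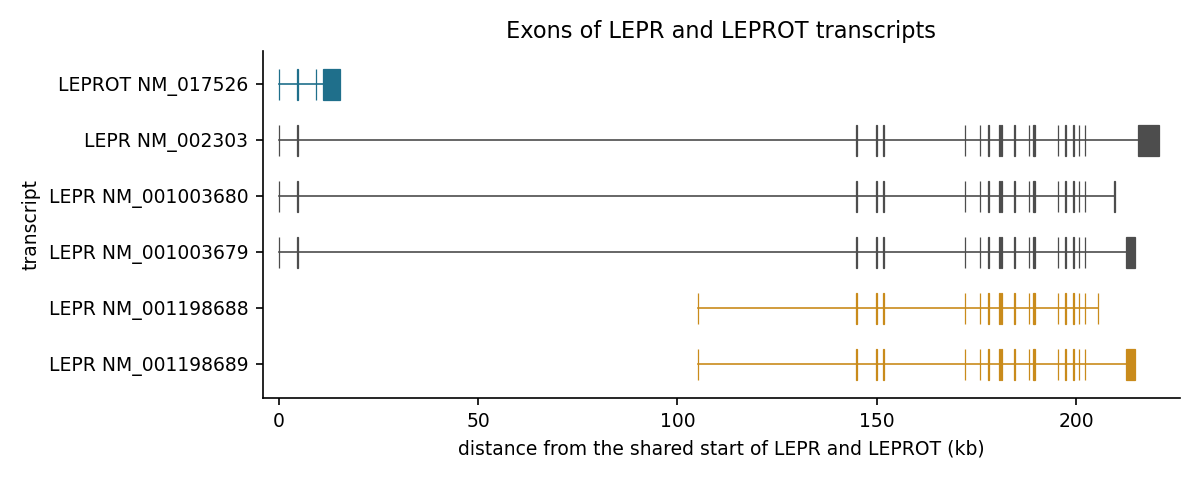
Exons (boxes, to scale) and introns (lines) of 1 LEPROT transcript and 5 LEPR transcripts by distance in kb from the shared start. LEPR forms that use the shared start are grey, those with the start 105 kb downstream are ochre, and all LEPR forms share exons from 145 kb on but differ in their last exon.

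In the controls RSEM placed all LEPR counts on forms with the shared start, 267.09, 286.26 and 273.79 counts in replicates 1 to 3. In HOTAIR-N replicates 1 and 2 the remaining 13 counts each were placed on the downstream start, and in replicate 3 all 18 were placed on the shared start. The placing of so few counts is weak evidence: the forms differ at the front only in 165 bases of upstream exons against 130 bases of the downstream one, out of 3069 bases for NM_001003680. In each HOTAIR-N library the forms of both kinds together held 18 counts or fewer.

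Nearly all LEPR counts of the controls were placed by RSEM on short-tailed forms. In the controls NM_001003680 held 74.5%, 52.4% and 59.6% of LEPR counts and NM_001003679 held 25.5%, 46.4% and 39.2%. The long form NM_002303 held 0, 3.35 and 3.32 counts in control replicates 1 to 3 and 0 in each HOTAIR-N library. At that depth a difference in the long form was not detectable. The counted model of NM_002303 had 4161 bases, against 8227 in its GENCODE structure, so part of that structure was outside the count.

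**Figure D3:**
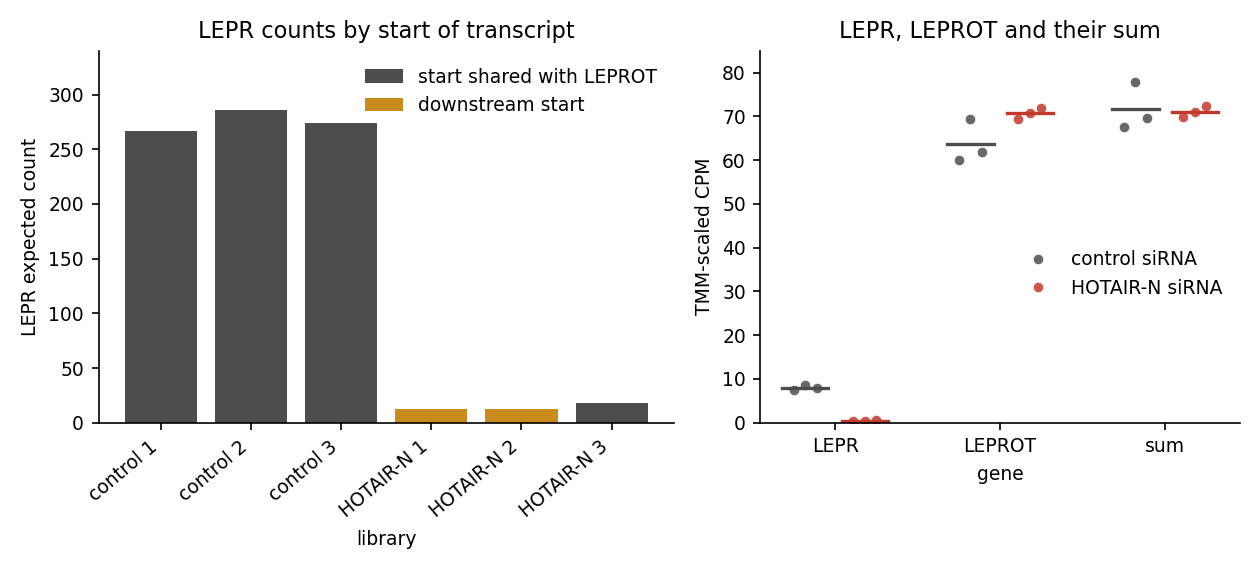
Left, LEPR expected counts per library, stacked by the start of the transcript to which RSEM assigned them. Right, TMM-scaled CPM of LEPR, LEPROT and their sum in each library with lines at the means: LEPR averages 7.95 and 0.425 CPM, and the sum 71.7 and 71.1 CPM.

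LEPROTL1, the relative of LEPROT on another chromosome, was lower. It had 2214, 2191 and 2048 expected counts in the controls and 1392, 1283 and 1409 in the HOTAIR-N libraries. Every HOTAIR-N library was below every control in CPM and TPM. The means were 62 ± 3.3 and 39.4 ± 1.33 CPM (SD, n = 3), or 63.5% of control, with a log2 fold change of -0.66 (SE 0.05). Per length, the 2 traffic genes changed places: LEPROTL1 was at 46.1 ± 2.13 TPM and LEPROT at 28.5 ± 1.7 TPM (SD, n = 3) in the controls, and they overlapped at 29.7 ± 1.04 and 31 ± 1.54 TPM (SD, n = 3) with the HOTAIR-N siRNA.

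Of the gp130 family receptors, the ligand-binding chain IL6R was lower and the signalling chains overlapped between the groups. IL6R had 884, 727 and 756 expected counts in the controls and 550, 529 and 493 in the HOTAIR-N libraries, all below the controls. Its level was 22.7 ± 1.8 against 15.2 ± 0.909 CPM (SD, n = 3), or 66.8% of control (log2 fold change -0.58, SE 0.08). IL6ST, the common chain gp130, had 12607, 12980 and 11654 expected counts in the controls and 13560, 12543 and 14822 in the HOTAIR-N libraries. The groups overlapped, at 358 ± 26.7 and 394 ± 30.7 CPM (SD, n = 3), a log2 fold change of 0.14 (SE 0.09).

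OSMR, the chain specific for oncostatin M and, with another partner, interleukin 31, also overlapped. It had 3039, 3042 and 2914 expected counts in the controls and 3403, 2930 and 3293 in the HOTAIR-N libraries, or 86.4 ± 3.73 and 92.6 ± 3.18 CPM (SD, n = 3), a log2 fold change of 0.10 (SE 0.05). LIFR, the chain for leukemia inhibitory factor, was scarce in T47D, with 105, 113 and 89 expected counts in the controls and 143, 116 and 103 in the HOTAIR-N libraries. Its groups overlapped at 2.95 ± 0.408 and 3.48 ± 0.472 CPM (SD, n = 3), a log2 fold change of 0.24 (SE 0.16). The antisense genes LIFR-AS1 and OSMR-AS1 had at most 7 and 2 counts in any library and were not tested, against the 89 or more of LIFR and the 2914 or more of OSMR.

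Downstream of the receptors, STAT3 was level and SOCS3 was higher. STAT3 had 9216, 8827 and 8889 expected counts in the controls and 9630, 8920 and 8763 in the HOTAIR-N libraries. The groups overlapped, at 259 ± 4.17 and 263 ± 8.84 CPM (SD, n = 3), with a log2 fold change of 0.03 (SE 0.03). SOCS3 had 37, 23 and 38 expected counts in the controls and 84, 88 and 67 in the HOTAIR-N libraries, all above the controls. The means of 0.937 ± 0.219 and 2.31 ± 0.368 CPM (SD, n = 3) differed 2.45-fold, a log2 fold change of 1.29 (SE 0.24), but rest on fewer than 100 counts per library.

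Levels per length placed STAT3 first in the controls at 99.1 ± 1.84 TPM (SD, n = 3), followed by IL6ST at 73.9 ± 5.61 TPM. OSMR at 47.1 ± 2.01 TPM and LEPROTL1 at 46.1 ± 2.13 TPM overlapped, and LEPROT, IL6R at 7.4 ± 0.593 TPM and LEPR at 4.24 ± 0.107 TPM came next, each apart from its neighbours. SOCS3 at 0.67 ± 0.156 TPM and LIFR at 0.54 ± 0.08 TPM overlapped at the bottom. With the HOTAIR-N siRNA the order of STAT3, IL6ST and OSMR was the same, at 103 ± 3.28, 83.2 ± 6.75 and 47.1 ± 1.5 TPM (SD, n = 3). LEPR went from the seventh place to the last, at 0.237 ± 0.0635 TPM, below IL6R at 5.16 ± 0.207 TPM, SOCS3 at 1.68 ± 0.27 TPM and LIFR at 0.653 ± 0.0802 TPM, all of which stood apart from each other.

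The transcripts of the other genes were compared by their share of the gene's counts. Of the 30 transcripts, 22 held at least 5% of their gene in either group, and for 4 of these the shares did not overlap between the groups. Over all tested genes, 22.2% of 28048 such transcripts did not overlap, so nothing is read from the count of 4. One was NM_001003679 of LEPR and the others concerned IL6R and OSMR, both genes with forms that lack the membrane anchor. NM_181359 of IL6R skips 94 bases and codes for a soluble receptor of 365 amino acids in place of the membrane receptor of 468, NM_000565. It held 145.96, 62.38 and 165.91 counts in the controls and 36.22, 0 and 0 in the HOTAIR-N libraries. In shares this was 15.7% ± 6.72 against 2.2% ± 3.8 of IL6R counts (SD, n = 3), and NM_000565 held 83.4% ± 6.27 against 95.7% ± 3.94 (SD, n = 3). IL6R was thus lower as a gene. RSEM also assigned a smaller share of it to the soluble form, but that placing is weak evidence. The 2 forms differ in length by 94 bases, out of 5914 for NM_000565. Shares of the soluble form nearly met, at 8.58% in control replicate 2 and 6.59% in HOTAIR-N replicate 1.

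RSEM also assigned a smaller share of OSMR to 1 of its short forms. NM_001168355, which matches a coding transcript of 342 amino acids, held 109.15, 299.62 and 268.83 counts in the controls and 14.72, 0.13 and 14.1 in the HOTAIR-N libraries, or 7.56% ± 3.45 against 0.288% ± 0.246 of the gene (SD, n = 3). The deposited percent, which allows for transcript length, put this form at 15.4% ± 7 and 0.643% ± 0.549 (SD, n = 3). NM_001323504, a transcript of 1942 bases matched to the same coding transcript, held 6.45% ± 2.59 and 5.41% ± 0.697 (SD, n = 3). The split of reads between these 2 forms is uncertain. NM_001323504 held 282.26 counts in control replicate 1, where NM_001168355 was low, and 128.42 in control replicate 2, where it was high. Nothing is therefore read from the contrast between the 2 forms. The full-length NM_003999 held 35.2% ± 1.35 and 34.1% ± 7.62 (SD, n = 3). The remaining OSMR forms overlapped between the groups, NM_001323506 at 22.2% and 24.5%, NM_001323507 at 17.6% and 20.5% and NM_001323505 at 11% and 15.1%. NM_001323507 is also a short transcript, at 2218 bases, and its overlap depends on the measure. In the deposited percent it held 31.7%, 28.5% and 26.8% in the controls and 39.2%, 38.1% and 33.4% in the HOTAIR-N libraries, without overlap.

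The other shares were steady or too uncertain to read. NM_213662, the beta form of STAT3 that lacks the transactivation tail, held 6.44% ± 1.79 and 6.98% ± 1.33 of STAT3 counts (SD, n = 3), beside NM_139276 at 65.4% and 69.3% and NM_003150 at 28.1% and 23.7%. NM_002184 held 97.1% and 97.2% of IL6ST, and NM_175767, which codes for a truncated gp130 of 329 amino acids, 0.294% ± 0.109 and 0.388% ± 0.218 (SD, n = 3). NM_017526 of LEPROT held 97.2% and 96.9%, NM_015344 of LEPROTL1 held 99% and 99.1%, and SOCS3 has a single transcript. LIFR was split between NM_001127671 and NM_002310, which both code for 1097 amino acids, and HOTAIR-N replicate 1 was placed wholly on the first and replicate 3 wholly on the other, so its shares carry no information on the siRNA.

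**Figure D4:**
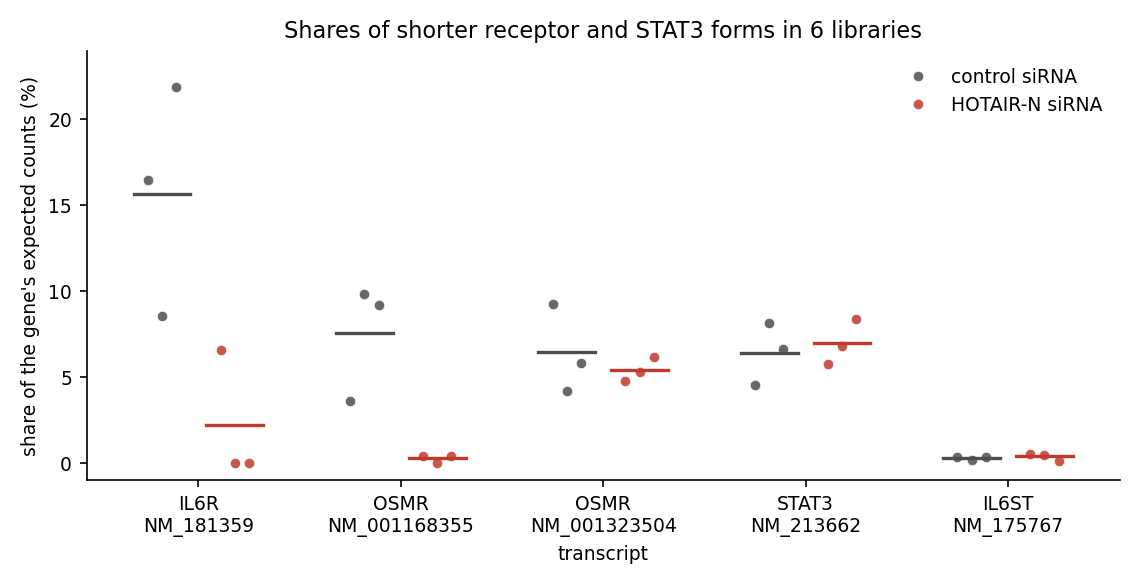
Share of each gene's expected counts (%) held by 5 shorter forms in the 6 libraries, with lines at the means. The short OSMR form NM_001323507 is not drawn. The soluble IL6R form averages 15.7% with the control and 2.2% with the HOTAIR-N siRNA and the OSMR form NM_001168355 7.56% and 0.288%, while the other 3 forms overlap.

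The 129 other genes of the pathway fall into 7 lists, of which 101 genes had enough counts to be tested. With edgeR's quasi-likelihood test 48 of them rose, 31 fell and 22 did not pass, so 78.2% were called where 71.1% of all tested genes were, and the median log2 fold change was 0.17 against 0.02. The lists were drawn up with earlier results of these data known and are described by their counts only.

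Few ligands of these receptors were expressed in T47D. Of 12 ligand genes, 5 were tested, of which 2 rose, 1 fell and 2 did not pass (median log2 fold change 0.18). LIF, the ligand of LIFR, rose from 1.16 ± 0.0722 to 3.76 ± 0.248 CPM (SD, n = 3), 3.23-fold (edgeR adjusted p = 3.1e-07). CTF1, cardiotrophin 1, which signals through the same chains, rose 2.76-fold from 2.81 ± 0.195 CPM (SD, n = 3). CNTF, ciliary neurotrophic factor, gave 0.308, 0.953 and 0 CPM in the controls and 0, 0.335 and 0 CPM in the HOTAIR-N libraries. It did not pass, at a log2 fold change of -1.93 (edgeR adjusted p = 0.14). It was called lower without control replicate 3 or HOTAIR-N replicate 2 (edgeR adjusted p = 0.021 and 0.024). Without control replicate 2 its log2 fold change was -0.54 (edgeR adjusted p = 0.71). Without both control replicate 2 and HOTAIR-N replicate 3 it was 0.01. LEP itself had 1, 1 and 0 counts in the controls and 0 in each HOTAIR-N library, and IL6, OSM and IL31 had 0 in all 6.

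Of 8 further receptor chains of the family, 3 were tested, 2 of which fell (median log2 fold change -0.31). IL27RA, the interleukin 27 receptor that also pairs with gp130, fell to 80.8% of 23.3 ± 2.41 CPM (SD, n = 3; edgeR adjusted p = 0.006). CNTFR, the anchor chain for ciliary neurotrophic factor, fell to 66.4% of 1.19 ± 0.186 CPM (SD, n = 3; edgeR adjusted p = 0.021). IL11RA, the interleukin 11 chain, was at 4.23 ± 0.498 and 5.13 ± 0.461 CPM (SD, n = 3) and missed the threshold (edgeR adjusted p = 0.051). The call for IL11RA turns on the setting: it was called higher under library-total scaling (edgeR adjusted p = 0.013) and without control replicate 3 or HOTAIR-N replicate 1 (adjusted p = 0.021 and 0.042). That for CNTFR was lost in DESeq2 (adjusted p = 0.085) and, in edgeR, without control replicate 3 or HOTAIR-N replicate 3 (adjusted p = 0.095 and 0.077).

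The Janus kinases and STAT genes divided. Of 9 tested, 6 rose, 2 fell and 1 did not pass (median log2 fold change 1.1). JAK1, the main kinase of the gp130 chains, fell from 611 ± 18.3 to 400 ± 13.6 CPM (SD, n = 3), 65.4% of control (edgeR adjusted p = 4.6e-08). JAK2, the kinase of LEPR, fell to 83.1% of 6.57 ± 0.394 CPM (SD, n = 3; edgeR adjusted p = 0.018), a call lost under library-total scaling (adjusted p = 0.1), in DESeq2 (adjusted p = 0.056) and without control replicate 2, HOTAIR-N replicate 1 or HOTAIR-N replicate 2 (adjusted p = 0.052, 0.053 and 0.05). TYK2 was at 33.5 ± 3.36 and 32.8 ± 1.66 CPM (SD, n = 3; edgeR adjusted p = 0.74), and JAK3, best known from lymphocytes, rose 2.94-fold from 2.42 ± 0.115 CPM (SD, n = 3).

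STAT2, STAT5A, STAT5B and STAT6 rose. STAT2, which acts in the interferon response, rose 2.55-fold from 61.1 ± 1.04 to 156 ± 17.2 CPM (SD, n = 3). STAT5A and STAT5B, which act for prolactin and growth hormone, rose 2.36-fold and 1.87-fold, and STAT6, which acts for interleukin 4, rose 2.14-fold from 73.6 ± 1.98 CPM (SD, n = 3). The edgeR adjusted p of these 4 genes ran from 2.6e-09 for STAT6 to 1.6e-06 for STAT5A, and in each the HOTAIR-N libraries were above all controls. STAT3, at 0.03 on the log2 scale, was described above, and its difference from these genes was not tested.

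**Figure D5:**
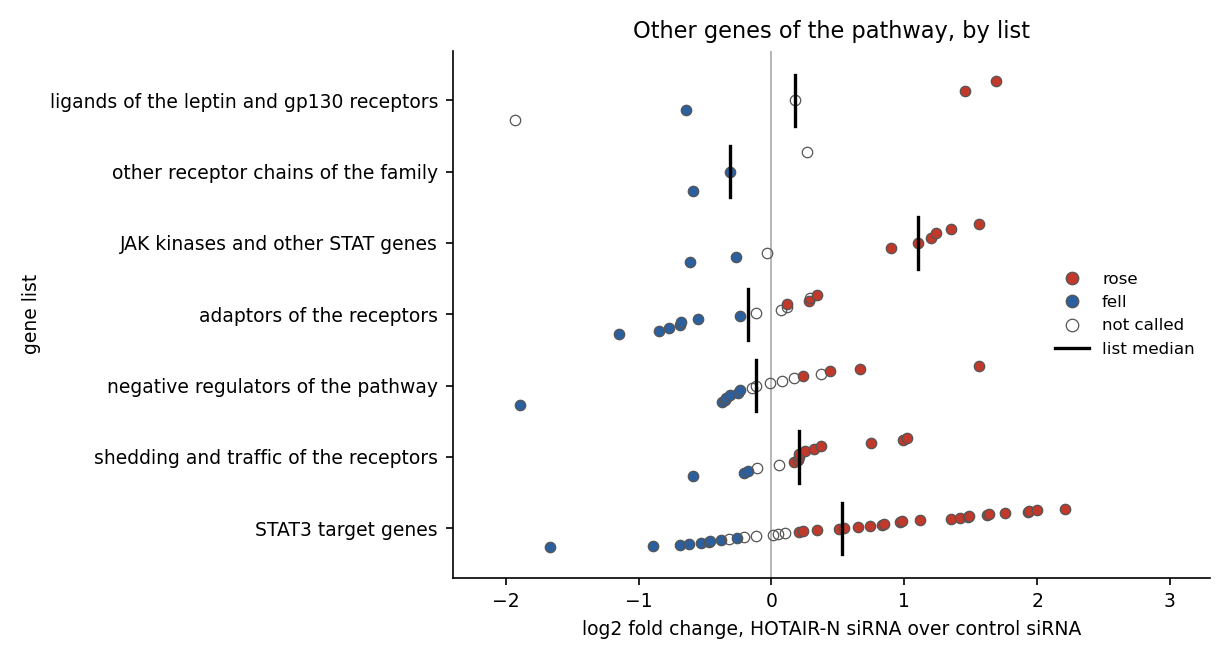
Log2 fold change (HOTAIR-N over control siRNA) of the 101 tested pathway genes in 7 lists, with genes that rose in red, those that fell in blue, those not called open, and a line at each list's median. The JAK and STAT list has 6 rises and a median of 1.1, and 23 of 38 STAT3 target genes rose.

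Among adaptors that link the receptors to other pathways, 7 of the 14 tested fell, 3 rose and 4 did not pass (median log2 fold change -0.18). IRS1, which couples JAK2 to phosphoinositide kinase signalling, fell to 45% of 63.6 ± 2.73 CPM (SD, n = 3; edgeR adjusted p = 8e-09). GRB2 and SOS2, which lead to RAS, fell to 58.6% of 177 ± 1.97 CPM and to 62.6% of 59.7 ± 3.92 CPM (SD, n = 3). SRC, a kinase bound by gp130 signalling complexes, fell to 68.2% of 105 ± 6.75 CPM (SD, n = 3). The number that rose differed between settings, with 5 under library totals, 2 with DESeq2 size factors in edgeR and 1 in the DESeq2 test, and was 1 without control replicate 1, control replicate 3, HOTAIR-N replicate 1 or HOTAIR-N replicate 2.

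Negative regulators went both ways: of 17 tested, 4 rose, 7 fell and 6 did not pass (median log2 fold change -0.12). PTPN1, the phosphatase that removes phosphate from JAK2 at the leptin receptor, fell from 137 ± 4.1 to 36.9 ± 0.602 CPM (SD, n = 3), 27% of control (edgeR adjusted p = 4.8e-11). PIAS1, an inhibitor of STAT signalling, fell to 78.7% of 45.5 ± 0.831 CPM (SD, n = 3). PTPN6, a phosphatase of cytokine receptors, rose 1.59-fold from 7.98 ± 0.75 CPM, and CISH, of the SOCS family, 1.36-fold from 17.2 ± 0.63 CPM (SD, n = 3). SOCS1, named here after its value was seen because it is the closest relative of SOCS3 in function, rose with a log2 fold change of 1.56, from 8, 7 and 10 to 32, 24 and 18 counts. SOCS7 fell by 0.25 on the log2 scale, and SOCS4, SOCS5 and SOCS6 did not pass at -0.15, 0.08 and -0.12.

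Genes for receptor shedding and traffic mostly rose, with 10 higher, 3 lower and 2 not called of 15 (median log2 fold change 0.21). CBL, a ubiquitin ligase that sends gp130 to the lysosome, rose 2.02-fold from 82.6 ± 1.91 CPM (SD, n = 3; edgeR adjusted p = 1e-09), and its relative CBLB rose 1.68-fold from 8.91 ± 0.379 CPM (SD, n = 3). RHBDF1, a cofactor of the sheddase ADAM17, rose 1.98-fold from 37.7 ± 3.82 CPM (SD, n = 3). VPS4B, of the endosomal sorting machinery, fell to 66.5% of 95.8 ± 6.84 CPM (SD, n = 3). ADAM17 and ADAM10, which cut IL6R from the cell surface and were named after their values were seen, went apart by small amounts, at 0.25 and -0.21 on the log2 scale.

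Of 50 known STAT3 target genes, 38 were tested, and 23 rose, 9 fell and 6 did not pass (median log2 fold change 0.53). The 4 with the smallest p all rose. S100A8, an inflammatory calcium-binding protein, rose 3.81-fold from 15.7 ± 0.992 CPM (SD, n = 3; edgeR adjusted p = 5.3e-10) and its partner S100A9 rose 2.55-fold from 49.2 ± 3.66 CPM (SD, n = 3). SAA1, a serum amyloid gene, rose 3.4-fold from 13.8 ± 0.654 CPM (SD, n = 3). Its near-identical copy SAA2, named after its value was seen, also rose, 2.68-fold. The split of reads between the 2 copies, and so the size of each rise, is uncertain. IRF9 rose 3.13-fold from 19.1 ± 0.391 CPM (SD, n = 3). IRF9 works with STAT2 in the interferon response, and the list also holds IRF1 and CXCL10, which interferons induce, so these 3 are not specific to STAT3. Whether the rises of the other genes in the list came through STAT3 was not tested. Among the falls, named after their values were seen, were FOS at -1.67, the survivin gene BIRC5 at -0.89 and BCL2 at -0.69 on the log2 scale. The fall of BCL2 depends on the measure, since in TPM its groups overlapped at 8.43 ± 1.04 and 8.34 ± 0.61 (SD, n = 3). MCL1, a relative of BCL2, rose at 0.51.

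The genes beside LEPR on chromosome 1 differed less from the control or were higher. Ahead of the shared start, DNAJC6, a clathrin-uncoating cofactor, fell to 60.3% of 22.1 ± 0.494 CPM (SD, n = 3; edgeR adjusted p = 6.2e-07), AK4, a mitochondrial adenylate kinase, was at 92.7% (edgeR adjusted p = 0.12) and JAK1, as given above, at 65.4%. Beyond LEPR, the phosphodiesterase gene PDE4B had 9, 18 and 11 counts in the controls and 66, 64 and 79 in the HOTAIR-N libraries and rose 5.47-fold (edgeR adjusted p = 2.2e-06). SGIP1 had 0 or 1 count in each library and was not tested.

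The genes whose values across the 6 libraries most resembled those of LEPR were picked from 12886 candidates by the root mean square difference of centred log2 CPM. LRRN3, a leucine-rich repeat membrane protein, was closest at 0.18, with 1103, 1123 and 1079 counts in the controls and 71, 80 and 83 in the HOTAIR-N libraries. MBD5, a methyl-CpG-binding domain protein, was also among the 5 closest, at 0.31, as were the potassium channel gene KCNQ5 and NXPH3, a neurexophilin, both at 0.32. Their levels were 7.12%, 7.98%, 7.18% and 8.62% of control, against 5.38% for LEPR. With 2 groups of 3 libraries, likeness of this kind mostly records a fold change of similar size.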

How the data were processed

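RNA of 6 T47D libraries, 3 per siRNA, was compared. Per the submitters' processing notes, the tools were STAR 2.6.0c and RSEM 1.3.0 and the build hg19. A use of strand in counting is not stated in these sources. Per the file headers, the deposited tables hold expected counts and TPM per gene and per transcript, and each transcript's share of its gene as a percent. Shares in the text were computed from expected counts.

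Expected counts were rounded, filtered with filterByExpr (minimum count 10, minimum total 15), scaled by TMM and tested with edgeR 4.0.16 (R 4.3.3) by the quasi-likelihood test without covariates, with Benjamini-Hochberg adjustment over 14919 genes and a threshold of 0.05. SE values are of the difference of mean log2 CPM (prior count 2). The steps were tested on simulated data. P-values measure the spread between these libraries of 1 cell line. The precision of low genes is limited by counts, and SDs cover library spread only.

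The members and lists were chosen with earlier results of these data known. Named were the 9 members, all tested JAK, STAT and other receptor genes, the 4 genes of smallest p in each other list, 3 neighbours on each side of LEPR and LEPROT, the 5 genes most like LEPR, antisense genes and transcripts with at least 5% of their gene. The third neighbour beyond LEPR was not matched in the tables, and some genes chosen by the rule are not reported here. Exon structures came from GENCODE 29 (GRCh38), by distance only. NM_001198687 was placed among the downstream-start forms by its length. Alternatives were other scalings, DESeq2 1.42.0, limma-voom (limma 3.58.1), other filters, a stricter threshold, a replicate block, TPM in place of counts and leaving out libraries.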

Additional observations from a re-analysis of the deposited data

How the results depend on the processing

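Over the alternatives, LEPR stayed between -4.4 and -3.7 on the log2 scale, LEPROTL1 between -0.7 and -0.56, IL6R between -0.63 and -0.49 and SOCS3 between 1.11 and 1.4, while LEPROT (0.1 to 0.25), IL6ST (0.07 to 0.24), LIFR (0.14 to 0.42), OSMR (0 to 0.2) and STAT3 (0.01 to 0.12) stayed small. Scaling by library totals moved the median of all genes by 0.1. With LEPR and LEPROT counts summed, the log2 ratio of the pair was -0.01, against 0.15 for LEPROT alone. Under the other scalings, tools, filters and threshold, the block and the libraries left out, 43 to 56 pathway genes rose and 27 to 34 fell. Deviations of same-numbered libraries from their group means gave r = -0.04, -0.21 and -0.12. Among all combinations the highest was 0.22, for control replicate 2 with HOTAIR-N replicate 3. Such values cannot show whether libraries were prepared together. With the replicate block 46 pathway genes rose and 32 fell, against 48 and 31. Ligands that fell then went from 1 to 2 with CNTF (edgeR adjusted p = 0.0048). Other receptor chains that rose went from 0 to 1 under library totals, upper-quartile scaling, no filter or the 1 CPM filter (0 to 1 with single libraries left out), and those that fell from 2 to 1 in DESeq2, at adjusted p under 0.01 and without both control replicate 2 and HOTAIR-N replicate 3 (1 to 2 with single libraries left out). JAK and STAT genes that fell went from 2 to 1 under library totals, upper-quartile scaling, DESeq2 and adjusted p under 0.01 (1 to 2 with single libraries left out). Adaptors that rose went from 3 to 5 under library totals and to 1 in DESeq2 and at adjusted p under 0.01 (1 to 3 with single libraries left out), shedding and traffic genes that fell from 3 to 1 under library totals, and ligands that fell ranged from 1 to 2 with single libraries left out. Differences in transcript share that changed sign with 1 library left out ranged, in percentage points, from -33.34 to 16.66 for NM_001127671 and -16.66 to 33.34 for NM_002310 of LIFR, from -2.16 to 0.38 for NM_001323504, -0.8 to 7.48 for NM_001323505 and -3.85 to 3.31 for NM_003999 of OSMR (1.34 with the deposited percent, which also moved NM_001168355 from -7.27 to -14.76 and NM_001323507 from 2.92 to 7.92), and from -0.4 to 1.38 for NM_213662 of STAT3. The libraries at the sign change were control replicate 1 (NM_001323504, NM_213662) and HOTAIR-N replicate 3 (all but NM_001323504); the cause was not tested. Counts under 20 per library for LEPR and under 100 for SOCS3 limit what can be said of their transcripts and sizes.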
